A study of Mus musculus with 4 samples.

Results

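The naive state of mouse embryonic stem cells (ESCs) is held by a set of transcription factors that activate themselves and each other. Here 10 of them were followed, *Nanog*, *Klf2*, *Klf4*, *Klf5*, *Esrrb*, *Tfcp2l1*, *Nr0b1*, *Zfp42*, *Prdm14* and *Tbx3*, in WT and *Bmal1* KO ESCs. They were found by their gene symbol and accounted for 11 of the 19645 features in the expression tables, because *Esrrb* has 2 features. All 11 were among the 12990 features that passed the filter on low values and were tested. RNA depleted of rRNA was sequenced from 2 libraries of WT ESCs and 2 libraries of *Bmal1* KO ESCs, and expression is given as FPKM, the number of fragments scaled by transcript length and by the mapped reads of the library. According to the study's methods, ESCs were grown on gelatin in serum with LIF. The KO ESCs carry a CRISPR/Cas9 frameshift deletion in *Bmal1* (*Arntl*) and come from 1 clonally picked line, so that an effect of the genotype and a difference between the WT culture and that clone cannot be told apart.

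Naive ESCs resemble the preimplantation epiblast. LIF, acting through STAT3, feeds the network mainly through *Klf4* and *Tfcp2l1*, whereas relief from the repressor TCF7L1 by Wnt signalling feeds *Esrrb*, and FGF signalling through ERK pushes cells out of the naive state. The factors overlap in what they do, so that ESCs tolerate the loss of several of them singly, and their joint decline is a hallmark of the exit from naive pluripotency.

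The naive factors did not move together in *Bmal1* KO ESCs. The nuclear receptor gene *Nr0b1* and the LIF target *Tfcp2l1* rose by 1.46-fold and 1.31-fold, *Klf4* fell to 0.725 of its WT level, and the other 7 factors did not pass the test (limma, adjusted p under 0.05). Over all tested features, 12.5% passed, with 6.85% higher and 5.6% lower in KO. None of the 10 changed by more than 2-fold with an adjusted p under 0.05, a criterion that 4.14% of all features met, although 7 of the 10, and 29.6% of all features, had an unadjusted p under 0.05 in limma. The differences ran from -0.46 to 0.54 on the log2 scale. Their median was -0.10, against -0.02 over all tested features.

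**Figure D1:**
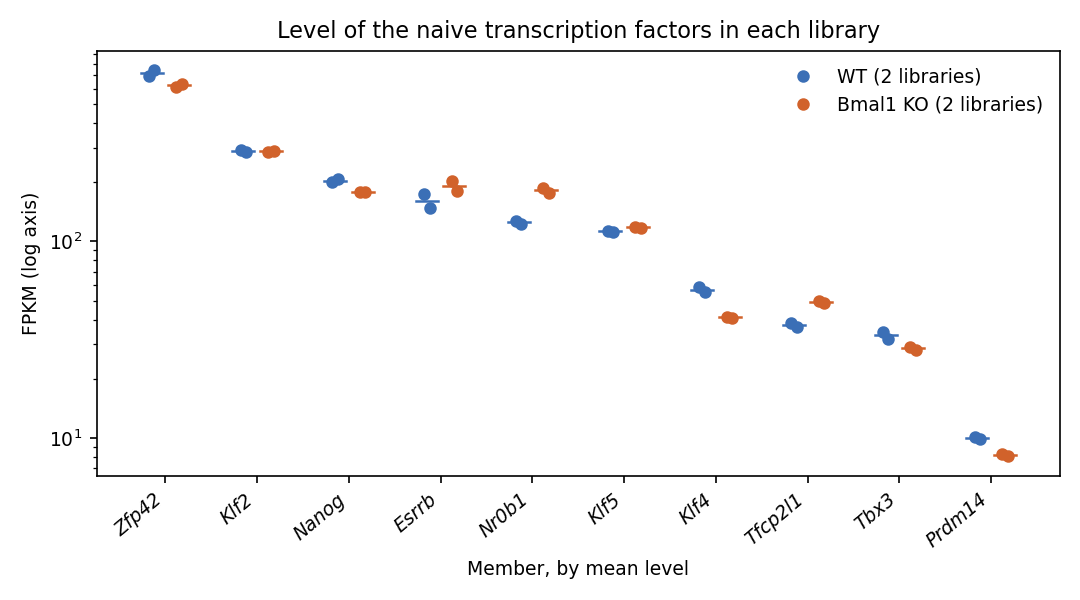
FPKM of the 10 naive transcription factors on a log axis in each of the 2 WT (blue) and 2 *Bmal1* KO (orange) libraries, with a short line at the mean of each genotype. The levels span from about 8.06 FPKM for *Prdm14* to 745 for *Zfp42*, and the genotypes lie close together for each gene compared with this span.

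The libraries of a genotype resembled each other more than those of the other genotype: log2 values over tested features correlated at r = 0.987 in the WT pair and 0.986 in the KO pair, and at 0.969 to 0.972 between genotypes. Features without a gene symbol took 26.8% and 37.3% of the summed FPKM in WT and 19.0% and 18.1% in KO, which bears on any comparison of levels between libraries. *Arntl* had 6.05 and 6.29 FPKM in WT and 5.95 and 5.92 in KO (log2 fold change -0.06, limma adjusted p = 0.750), and since a small frameshift need not remove the transcript, its RNA level does not check the labels. Undifferentiated ESCs were recognisable in all 4 libraries, with *Pou5f1* at 1389 to 1619.9 FPKM and *Sox2*, its partner, at 238 to 295. In RNA from bulk cultures, fewer cells of a type and less RNA per cell cannot be told apart. The 8 tested features of the Y chromosome had a median log2 fold change of 2.17. Medians of the other chromosomes ran from -0.09 to 0.09. The cause of this difference between the WT and KO libraries was not tested. The study's methods call the libraries biological replicates. Neither they nor the labels say whether separate cultures were grown, so that p-values measure the spread between these libraries, which may in part be technical.

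*Nr0b1* encodes DAX1, an orphan nuclear receptor without a classical DNA-binding domain that associates with OCT4. It lies on the plus strand of the X chromosome (ENSMUSG00000025056.4, GRCm38 chrX:86191775-86195946). Its FPKM was 127 and 123 in WT and 187 and 176 in KO. Both KO libraries lay well above both WT libraries. The rise was 0.54 on the log2 scale (95% interval 0.36 to 0.72, limma adjusted p = 0.0109), the most pronounced difference among the 10 factors, and *Nr0b1* went from at most 7.26% of the FPKM summed over them in WT to 10.9% and 10.4% in KO. The 10 nearest tested features with a symbol, among which *Dmd* appears more than once, spanned 14.4 Mb. They had a median of -0.12, from -0.60 to 0.84, with 2 of them differing at least as much as *Nr0b1*. The 428 tested features of the X chromosome had a median of -0.02. A change confined to the bases close to *Nr0b1* was not tested. The 250 bases before its annotated start, shown because this factor changed most, held none of the motifs searched here, which are introduced with *Klf4*.
Nr0b1 chrX:86191525-86191774 plus strand: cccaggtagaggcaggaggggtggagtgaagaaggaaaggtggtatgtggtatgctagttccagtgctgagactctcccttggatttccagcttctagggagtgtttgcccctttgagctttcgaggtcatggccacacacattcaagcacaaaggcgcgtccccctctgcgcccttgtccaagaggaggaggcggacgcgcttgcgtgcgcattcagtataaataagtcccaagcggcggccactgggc

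*Tfcp2l1* encodes a CP2-family factor that is activated by STAT3 and that alone can stand in for much of the effect of LIF. It lies on the plus strand of chromosome 1 (ENSMUSG00000026380.10, chr1:118627945-118685168). Its level was 38.3 and 36.9 FPKM in WT and 49.8 and 48.8 in KO. The genotypes did not overlap, and the replicates of each lay close to each other. The log2 fold change was 0.39 (95% interval 0.21 to 0.57, limma adjusted p = 0.0259), with a median of -0.16 over its 10 nearest tested neighbours and of 0.09 over chromosome 1. This call did not survive the loss of a library in 3 of 4 cases: the adjusted p was 0.0829 without KO replicate 1, 0.0629 without KO replicate 2 and 0.0768 without WT replicate 2, with 1 factor higher in KO in place of 2. It was also 0.0743 in a model without a variance trend. The bases before its start are shown as those of the other factor that rose, and they held none of the searched motifs either.
Tfcp2l1 chr1:118627695-118627944 plus strand: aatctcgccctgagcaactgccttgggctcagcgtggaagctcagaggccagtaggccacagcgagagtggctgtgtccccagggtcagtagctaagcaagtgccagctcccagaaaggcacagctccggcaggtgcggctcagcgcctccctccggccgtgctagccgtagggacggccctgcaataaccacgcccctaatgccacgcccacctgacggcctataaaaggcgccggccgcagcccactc

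*Klf4*, a Krüppel-like zinc finger factor and one of the reprogramming factors, is the classical direct target of LIF and STAT3. It lies on the minus strand of chromosome 4 (ENSMUSG00000003032.8, chr4:55527137-55532475). It had 58.4 and 55.0 FPKM in WT and 41.3 and 40.9 in KO. Both KO libraries were below both WT libraries, and they differed from each other less than the WT libraries did. *Klf4* fell by 0.46 on the log2 scale (95% interval -0.65 to -0.28, limma adjusted p = 0.0177). Its neighbours were also mostly lower, with a median of -0.26 over the 10 nearest tested features against -0.06 over chromosome 4. These 10 spanned 3.59 Mb, and 0 of them had a difference as large as that of *Klf4*. Without a variance trend the adjusted p was 0.0582.

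Because BMAL1, as a dimer with CLOCK, recognises the E-box CACGTG, the promoters of the factors were searched for it on both strands, in RefSeq windows (GRCm38.p6) from 250 bases before to 50 after each start. The windows of 7 of the 10 factors were at hand, 9 in all, since *Nanog* and *Esrrb* have 2 starts each. *Klf5*, *Prdm14* and *Tbx3* had no entry. An E-box was present in 1 of the 9 windows, that of *Klf4*, and in 7.15% of 32851 windows of all genes. It begins 182 bases before the start and is written in capitals here.
Klf4 chr4:55532476-55532725 minus strand: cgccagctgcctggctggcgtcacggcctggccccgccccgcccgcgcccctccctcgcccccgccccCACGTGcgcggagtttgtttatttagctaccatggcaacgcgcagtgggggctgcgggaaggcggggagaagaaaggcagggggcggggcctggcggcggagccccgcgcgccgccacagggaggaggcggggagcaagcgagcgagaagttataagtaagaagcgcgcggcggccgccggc
The octamer TTTGCAT, bound by OCT4, occurred in the windows of *Nanog* and *Zfp42* and in 4.63% of all windows, and the SOX motif ACAATG in those of *Nanog* and *Esrrb* and in 12.6%. The STAT motif TTCCNGGAA and the ESRRB motif AAGGTCA occurred in 0 of the 9 windows, against 1.15% and 4.72% of all windows. These are matches of letters in a short window and not binding sites.

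*Klf2* and *Klf5* are partners of *Klf4* that can replace it in self-renewal. *Klf2* (ENSMUSG00000055148.7, plus strand, chr8:72319062-72321654) had 293 and 287 FPKM in WT and 286 and 290.2 in KO. The genotypes overlapped, as for no other of the 10 factors. Its log2 fold change was -0.01, with a 95% interval from -0.18 to 0.16 (limma adjusted p = 0.937), and its sign changed with the scaling of the libraries. *Klf5* (ENSMUSG00000005148.8, plus strand, chr14:99298492-99315035) had 113 and 112 FPKM in WT and 119 and 118 in KO. Both KO libraries were slightly above WT, with a log2 fold change of 0.07 (95% interval -0.10 to 0.23, limma adjusted p = 0.557), which was 0.12 with quantile normalization and 0.14 with libraries rescaled to the features with a symbol.

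Of the 3 KLF factors only *Klf4* passed the test, and whether they responded differently is described here by their shares and was not tested. Their summed FPKM was 465 and 454 in WT and 446 and 449 in KO, 460 ± 7.99 against 447 ± 2.00 (SD, n = 2), which is 0.973 of WT. With 2 libraries against 2, the two-sided exact permutation test cannot go below p = 0.333, the value found here. Within this sum *Klf4* went from 12.6% and 12.1% to 9.26% and 9.12%, *Klf5* from 24.4% and 24.7% to 26.6% and 26.2%, and *Klf2* from 63.1% and 63.2% to 64.1% and 64.7%. Shares within a library do not depend on how libraries are scaled. They are tied to each other, however, so that a fall of *Klf4* by itself raises the shares of *Klf2* and *Klf5*. The level of *Klf2* hardly differed (log2 fold change -0.01), and its higher share does not show a rise of its own.

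*Nanog*, the homeodomain factor whose level gates entry into and exit from the naive state, lies on the plus strand of chromosome 6 (ENSMUSG00000012396.12, chr6:122707489-122714633). Its level was 201 and 207 FPKM in WT and 179 in both KO libraries. KO was below WT with no overlap, by a small margin. The log2 fold change of -0.18 (95% interval -0.35 to -0.02) had an unadjusted p of 0.0374 and an adjusted p of 0.143 in limma, and with libraries rescaled to the features with a symbol it was -0.11. Its upstream bases, with the octamer and the SOX motif in capitals next to each other, are shown as the example of a promoter that OCT4 and SOX2 are known to bind.
Nanog chr6:122707239-122707488 plus strand: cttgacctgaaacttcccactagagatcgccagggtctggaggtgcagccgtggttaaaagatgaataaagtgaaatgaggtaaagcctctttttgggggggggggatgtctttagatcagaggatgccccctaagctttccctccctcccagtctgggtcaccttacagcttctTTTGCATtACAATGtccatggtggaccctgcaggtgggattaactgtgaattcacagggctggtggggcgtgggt

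*Zfp42*, better known as REX1, is a zinc finger gene whose expression is widely used to mark naive cells. It lies on the minus strand of chromosome 8 (ENSMUSG00000051176.6, chr8:43295067-43307009) and was the most highly expressed of the 10, above 99.1% of the features with a symbol in each library. It had 699 and 745 FPKM in WT and 611 and 634 in KO. The KO libraries were below the WT libraries, with a log2 fold change of -0.21 (95% interval -0.41 to -0.02, limma unadjusted p = 0.0354, adjusted p = 0.139), which shrank to -0.062 with quantile normalization and to -0.14 with libraries rescaled to the features with a symbol. *Prdm14*, which represses FGF receptor signalling and DNA methyltransferase genes in ESCs, was the least expressed, though still above 62.3% to 66.4% of the features with a symbol (ENSMUSG00000042414.7, minus strand, chr1:13113209-13127798). Its FPKM was 10.1 and 9.92 in WT and 8.32 and 8.06 in KO. It was lower in both KO libraries, with a log2 fold change of -0.29 (95% interval -0.51 to -0.06, limma unadjusted p = 0.0210, adjusted p = 0.102).

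*Tbx3* encodes a T-box factor downstream of LIF and PI3K signalling. Its feature, on the plus strand of chromosome 5 from 119570129 to 119684724 (ENSMUSG00000018604.18), also covers the antisense gene *Tbx3os1*, and the protein-coding gene itself is annotated only from 119670669, so that its value is uncertain. It had 34.8 and 31.7 FPKM in WT and 29.0 and 28.1 in KO. KO was lower without overlap, by 0.22 on the log2 scale (95% interval -0.42 to -0.01, limma unadjusted p = 0.0438, adjusted p = 0.157), or by 0.14 with libraries rescaled to the features with a symbol. *Esrrb*, an orphan nuclear receptor that is repressed by TCF7L1 and can substitute for *Nanog*, varied most between replicates (ENSMUSG00000021255.17, plus strand, chr12:86361117-86521628). It had 175 and 147 FPKM in WT and 202 and 179.8 in KO. The lower KO library was only slightly above the higher WT library, and the log2 fold change of 0.25 had a 95% interval from -0.02 to 0.52 (limma unadjusted p = 0.0677, adjusted p = 0.200). It was 0.37 without WT replicate 1, 0.12 without WT replicate 2 and 0.16 without KO replicate 1. The second *Esrrb* feature, with the same coordinates, had 0.788 to 0.978 FPKM, overlapped between genotypes and had an adjusted p of 0.762 in limma.

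**Figure D2:**
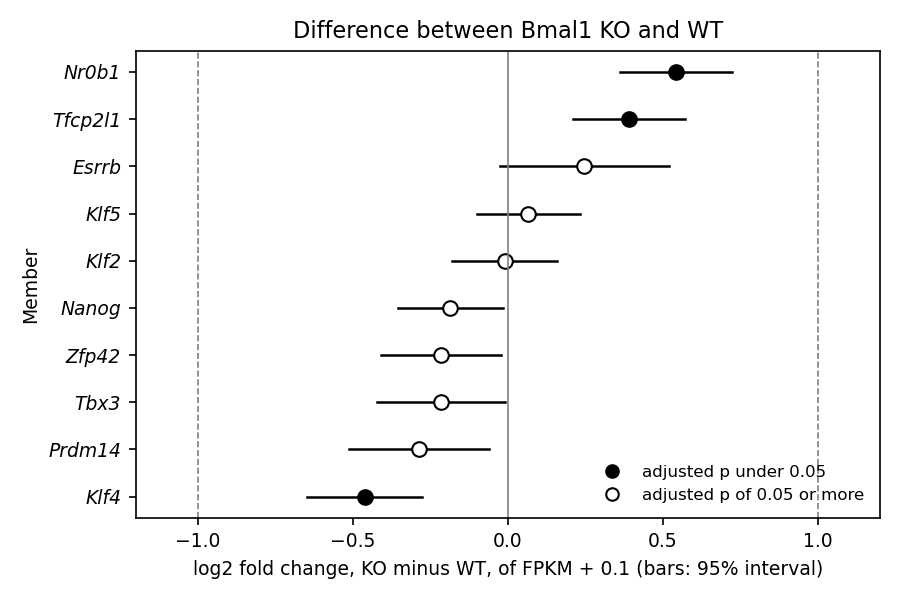
The log2 fold change between *Bmal1* KO and WT ESCs (KO minus WT, on FPKM + 0.1) of each naive factor, with 95% intervals from limma on 2 against 2 libraries. Filled points passed an adjusted p of 0.05 (*Klf4* lower, *Tfcp2l1* and *Nr0b1* higher), and all 10 intervals lie inside the dashed lines that mark a 2-fold change.

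Seen as a set, 5 factors had both KO libraries below both WT libraries (*Nanog*, *Klf4*, *Zfp42*, *Prdm14* and *Tbx3*), 4 had both above (*Klf5*, *Esrrb*, *Tfcp2l1* and *Nr0b1*) and *Klf2* overlapped. Such a separation was common, since 58.8% of all tested features showed it, 27.0% with KO above and 31.7% with KO below. The 95% interval left out a 2-fold change for 10 of 10 factors, as for 80.7% of all tested features, and a 1.5-fold change for 8 of 10, against 56.8%. These shares over all tested features were not matched for expression level. The exceptions to the narrower bound were *Klf4* and *Nr0b1*. The median absolute log2 fold change of the factors was 0.23, against 0.14 for the 6463 features expressed at least as highly as *Prdm14*, of which 11.7% passed the test.

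Replicates of these genes agreed closely, with a median SD on the log2 scale of 0.04 (0.01 to 0.15). It was 0.12 for all tested features, but these reach down to a mean of 0.5 FPKM and are not matched to the factors in level. The test nevertheless had little reach at the sizes seen for *Nanog*, *Tbx3*, *Zfp42* and *Prdm14*. Among the features expressed at least as highly as *Prdm14*, 1147 had an absolute log2 fold change between 0.18 and 0.29. Of these, 563 had an unadjusted p under 0.05 but 0 an adjusted p under 0.05 in limma. The limits of this range are the smallest and largest differences of these 4 factors, taken because they had missed. The smallest difference that passed at this level of expression, 0.290, lies just above the range, so that the 0 largely restates where the threshold falls. The misses of these 4 factors are therefore no evidence that they were unchanged.

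The summed level of the naive factors differed little between the libraries. Summed over the 10 genes it was 1749.9 and 1755 FPKM in WT and 1712 and 1703 in KO, 0.975 of WT (two-sided exact permutation p = 0.333, the smallest possible). The geometric mean, in which each gene counts equally, was 98.0 and 94.6 FPKM in WT and 96.5 and 94.3 in KO, and here the genotypes overlapped. *Zfp42* made up 39.9% and 42.5% of the sum in WT and 35.7% and 37.2% in KO, and the share of *Nr0b1* is given above. The share of *Klf2*, 16.8% and 16.3% in WT and 16.7% and 17.0% in KO, overlapped between genotypes.

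FPKM are scaled by length, so that levels can be ordered between genes. In WT the order was *Zfp42*, *Klf2*, *Nanog*, *Esrrb*, *Nr0b1*, *Klf5*, *Klf4*, *Tfcp2l1*, *Tbx3* and *Prdm14*, with no overlap between neighbours. In KO it was *Zfp42*, *Klf2*, *Esrrb*, *Nr0b1*, *Nanog*, *Klf5*, *Tfcp2l1*, *Klf4*, *Tbx3* and *Prdm14*, where *Esrrb* could not be separated from *Nr0b1*, nor *Nr0b1* from *Nanog*. Of the 45 pairs of factors, 2 had one order in both WT libraries and the opposite order in both KO libraries. The ratio of *Klf4* to *Tfcp2l1*, both LIF targets, was 1.52 and 1.49 in WT and 0.830 and 0.838 in KO. The ratio of *Nanog* to *Esrrb* was 1.15 and 1.41 in WT and 0.888 and 0.998 in KO, so that the second KO library was at parity. The ratio of *Nr0b1* to *Klf4* kept its direction and went from 2.18 and 2.23 to 4.54 and 4.31. These ratios are descriptions and were not tested.

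**Figure D3:**
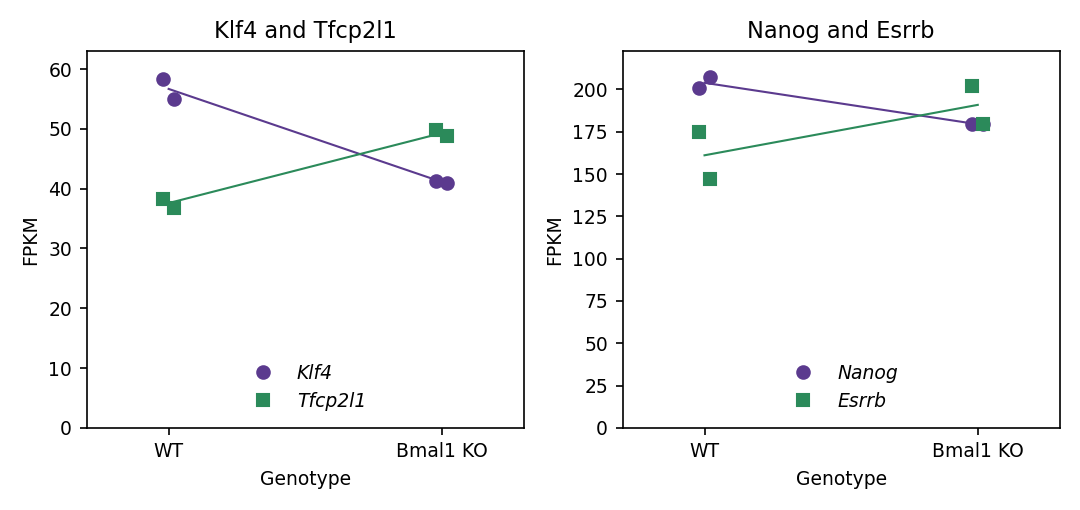
FPKM of the 2 pairs of naive factors whose order turned around between genotypes, with a point per library and a line between the means of WT and *Bmal1* KO. *Klf4* lay above *Tfcp2l1* in both WT libraries and below it in both KO libraries, whereas *Nanog* and *Esrrb* met closely in a KO library, at 179 and 179.8 FPKM.

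The 5 tested genes whose pattern over the 4 libraries was most like that of *Nr0b1*, by the root mean square difference of centred log2 FPKM, were *Tuba4a* (0.00368), *Sepw1* (0.0105), *Ppt1* (0.0150), *Adipor1* (0.0165) and *Flcn* (0.0179). *Tuba4a*, an alpha tubulin gene, had 120.4 and 117 FPKM in WT and 179 and 168 in KO. With only 4 libraries, such a likeness mostly restates that a gene rose by a similar amount.

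The signals that feed the network were followed in lists of genes, each described by its counts and its median. Of 8 genes of the LIF and STAT3 input, 0 passed the test in either direction and 2 had an unadjusted p under 0.05 in limma. Over all tested features these shares were 12.5% and 29.6%. The median log2 fold change of the 8 was -0.14. Both KO libraries lay below both WT libraries for 5 of the 8 and above them for 0, against 31.7% and 27.0% of all tested features. *Stat3* itself had 28.4 and 27.5 FPKM in WT and 27.1 in both KO libraries (log2 fold change -0.04). Of 7 genes of the Wnt and GSK3 input, only *Tcf7l1*, the repressor of *Esrrb* and other naive genes, passed, with 19.6 and 17.8 FPKM in WT and 29.8 and 26.0 in KO (log2 fold change 0.57, limma adjusted p = 0.0237). It was higher in both KO libraries, as was *Esrrb*. The median of this list was 0.02.

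Of 10 genes of the FGF and ERK input, 9 had a mean of at least 0.5 FPKM in each genotype, and of these 3 rose and 0 fell in limma, with a median of 0.30. *Fgfr2*, an FGF receptor gene, passed the filter only through the KO libraries, so that its test is not counted here: it had 0.184 and 0.172 FPKM in WT and 1.07 and 1.08 in KO. *Dusp6*, an ERK phosphatase induced by ERK activity, had 25.0 and 23.8 FPKM in WT and 35.5 and 36.2 in KO (0.55, limma adjusted p = 0.0116). *Etv5* (0.44, adjusted p = 0.0409 in limma) and *Spry4* (0.42, adjusted p = 0.0436), a transcription factor gene and a feedback inhibitor gene of the same pathway, were also higher. *Spry4* did not pass without KO replicate 1, KO replicate 2 or WT replicate 2 (limma adjusted p of 0.110, 0.0532 and 0.139), nor *Etv5* without KO replicate 1 or WT replicate 2 (0.0944 and 0.0965). *Dusp6* passed whichever library was left out (limma adjusted p of at most 0.0216).

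In the BMP input, with 8 genes and a median of 0.04, the genes that rose were the 3 ID genes, which encode inhibitors of basic helix-loop-helix factors and are induced by BMP. *Id2* had 6.69 and 7.60 FPKM in WT and 18.1 and 21.4 in KO (log2 fold change 1.45, limma adjusted p = 0.00410). *Id1* had 91.7 and 91.0 FPKM in WT and 139 and 136 in KO (0.59, limma adjusted p = 0.00746), and *Id3* rose by 0.69 (limma adjusted p = 0.00994). The other 5 genes, receptors and SMADs, did not pass, and of these *Bmpr1a*, *Bmpr2*, *Smad1* and *Smad4* had both KO libraries below both WT libraries and *Smad5* both above, which 31.7% and 27.0% of all tested features did.

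Of 9 genes linked to the exit from the naive state, 3 rose and 0 fell, with a median of 0.22. These were *Flcn*, *Fnip1* and *Fnip2*, whose products form the folliculin complexes that keep the transcription factor TFE3 out of the nucleus. *Tfe3* itself is also in the list, as the target of these complexes and not as a driver of the exit, and it did not pass (0.22). *Flcn* had 14.4 and 13.6 FPKM in WT and 21.4 and 19.6 in KO (log2 fold change 0.54, limma adjusted p = 0.0189). *Fnip1* (0.53, limma adjusted p = 0.0430) and *Fnip2* (0.43, limma adjusted p = 0.0463) were close to the threshold. *Fnip1* did not pass without KO replicate 2 (0.123) or WT replicate 1 (0.0707), and *Fnip2* did not pass when any of the 4 libraries was left out (0.0677 to 0.152).

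Other genes that are expressed in naive cells, 15 in all, had a median of -0.00, with 2 higher and 1 lower. *Sp5*, a Wnt target, had 1.31 and 1.03 FPKM in WT and 4.16 and 4.33 in KO (log2 fold change 1.78, limma adjusted p = 0.00522). *Fgf4*, the autocrine FGF ligand of ESCs, rose by 0.30 (limma adjusted p = 0.0493). *Nr5a2*, a nuclear receptor gene that can activate *Pou5f1*, had 20.1 and 21.2 FPKM in WT and 13.0 and 15.1 in KO (-0.55, limma adjusted p = 0.0260). Of 13 general pluripotency factors, 0 rose and 3 fell, with a median of -0.05. They were *Utf1* (-0.43, limma adjusted p = 0.0491), *Trim28* (-0.37, adjusted p = 0.0306) and *Dppa2* (-0.37, adjusted p = 0.0318). *Pou5f1* (-0.05) and *Sox2* (-0.26) did not pass. *Sox2* was nevertheless lower in both KO libraries (95% interval -0.44 to -0.08, limma unadjusted p = 0.0124, adjusted p = 0.0754), so that its miss is no evidence that it was unchanged. Several of these calls hung on a library: *Fgf4* (limma adjusted p from 0.115 to 0.197) and *Trim28* (0.0632 to 0.0931) did not pass when any of the 4 was left out, *Nr5a2* not without KO replicate 1 (0.0597), *Utf1* not without KO replicate 2 (0.140) or WT replicate 1 (0.0806), and *Dppa2* not without KO replicate 1 (0.0903), KO replicate 2 (0.0789) or WT replicate 2 (0.126). With libraries rescaled to the features with a symbol, *Utf1*, *Dppa2* and *Trim28* did not pass.

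Among 12 genes of the formative and primed states that follow the naive state, 10 could be tested, with a median of 0.34, or 0.20 without *Cdh2*, whose mean reached 0.5 FPKM only in KO. Here 3 rose and 2 fell. *Sox3* (log2 fold change 1.10, limma adjusted p = 0.0133), *Pou3f1* (0.79, adjusted p = 0.0187) and *Sox4* (0.67, adjusted p = 0.0119) were higher. *Otx2*, the factor that directs the transition to the formative state, had 10.9 and 9.95 FPKM in WT and 6.06 and 6.01 in KO (-0.78, limma adjusted p = 0.00990). *Dnmt3b*, a de novo DNA methyltransferase gene, had 61.3 and 62.0 FPKM in WT and 37.1 and 35.0 in KO (-0.77, limma adjusted p = 0.00522). The list thus moved in both directions. *Fgf5* was at most 0.199 FPKM in any library and was not tested.

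Paralogs of the factors, which could share reads or functions with them, showed little. Of 23 listed, 22 were in the tables and 17 were tested, with a median of 0.02, and only *Klf15* passed, with 6.93 and 6.10 FPKM in WT and 11.0 and 10.7 in KO (log2 fold change 0.73, limma adjusted p = 0.0133).

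**Figure D4:**
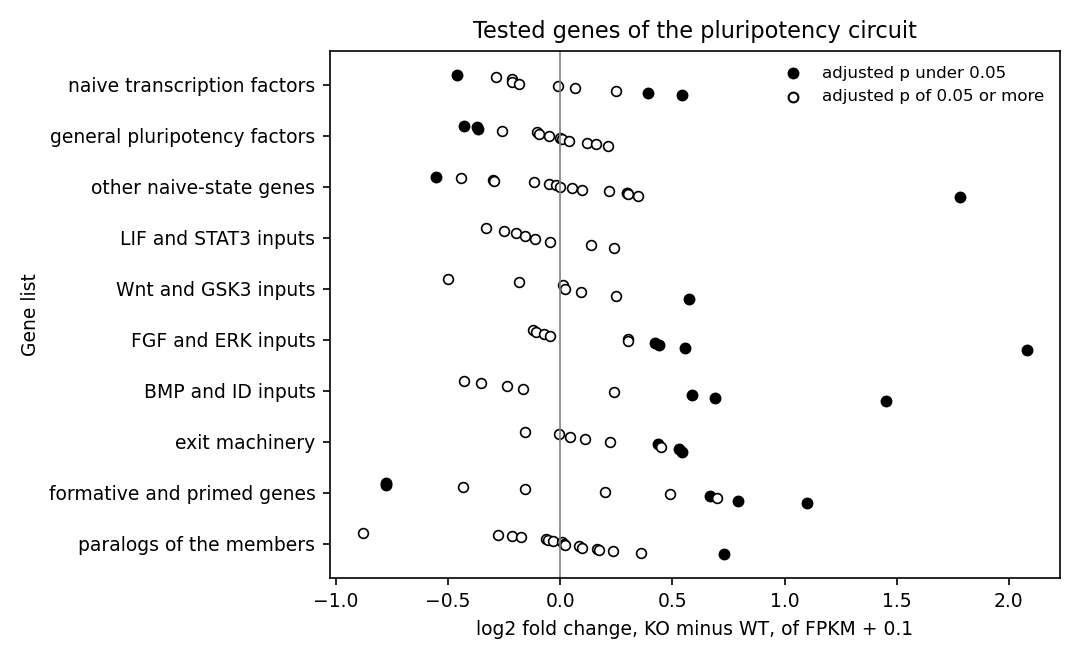
The log2 fold change (KO minus WT, on FPKM + 0.1) of each tested gene in the list of naive factors and in 9 further lists, with filled points for an adjusted p under 0.05 in limma. The naive factors spread between -0.46 and 0.54 on both sides of 0, while the calls in the FGF and ERK, BMP and ID, and exit lists all lie to the right. The rightmost point, *Fgfr2*, passed the filter only through the KO libraries.

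Markers of other cell types were read beside these results. The 7 markers of primitive endoderm stayed below 1 FPKM in every library. Their sum was 1.17 to 1.26 in WT and 1.84 to 1.96 in KO. *Sox7* had 0.260 and 0.247 FPKM in WT and 0.709 and 0.627 in KO. *Dab2* had 0.0993 and 0.136 in WT and 0.327 and 0.343 in KO. *Pdgfra* and *Foxa2* also had both KO libraries above both WT libraries. *Gata4* had both below, and *Gata6* and *Sox17* overlapped. Only *Gata4* was tested, and it did not pass. Of 8 fibroblast markers, 6 were in the tables and 1, *Thy1*, was tested and did not pass. *Col1a1* and *Col1a2* were at or below 0.217 FPKM, *Col3a1* and *Dcn* were listed at 0 in 3 of 4 libraries each, and the sum was 1.91 to 2.23 in WT and 2.66 to 3.31 in KO. Of 7 trophoblast markers, 5 were in the tables. *Tfap2c* rose (log2 fold change 0.78, limma adjusted p = 0.0187) and *Eomes* fell (-1.73, adjusted p = 0.0154). *Cdx2* was at most 0.0876 FPKM and listed at 0 in KO replicate 1. The sum was 7.19 to 8.21 in WT and 9.23 to 10.4 in KO. Most of it was *Tfap2c*, with 5.66 and 4.72 FPKM in WT and 8.54 and 9.36 in KO, so that the sum follows this gene. *Eomes* had 2.21 and 2.25 in WT and 0.463 and 0.775 in KO.

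Neural markers moved in both directions. *Sox1* had 1.32 and 1.38 FPKM in WT and 6.91 and 7.61 in KO (log2 fold change 2.34, limma adjusted p = 0.00169). *Pax6* (1.72, limma adjusted p = 0.0198) also rose. *Neurod1*, which passed the filter only through the KO libraries, had 0.423 and 0.517 FPKM in WT and 2.02 and 2.72 in KO. *Tubb3*, a neuronal tubulin gene that was well expressed in WT ESCs too, fell (-0.70, limma adjusted p = 0.00827). *Nes* (0.85) and *Map2* (0.39) had estimates above 0 and did not pass. The sum of the 6 was 128 to 135 FPKM in WT and 89.8 to 97.6 in KO, and none of the 6 was at 0. Most of this sum was *Tubb3*, with 130 and 124 FPKM in WT and 82.5 and 74.0 in KO, so that the sum follows this gene. The part of these markers in the differences of the naive factors was not tested.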

How the data were processed

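RNA-seq was made from 2 WT and 2 *Bmal1* KO ESC libraries, grouped by their labels. The authors aligned reads to GRCm38 with TopHat2 2.1.1 and Bowtie2 2.3.0, and the deposited FPKM values came from Cufflinks 2.2.1. Depth is unknown, since FPKM keeps no read number and low values showed no whole-read steps, so precision rests on replicate spread. Starts are counted from 0 in the files, and 1 was added. FPKM was tested as log2(FPKM + 0.1), for features with a mean of at least 0.5, in limma 3.58.1 (R 4.3.3) with a variance trend and Benjamini-Hochberg adjustment over 12990 features. Fold changes on this scale understate those of low genes. Other steps used Python 3.11.15, pandas 2.3.3, numpy 2.4.6 and matplotlib 3.10.9, and the fit was tested on simulated data. For *Esrrb* the feature with the higher mean was used.

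The factors and gene lists were chosen with earlier results of these data known. Named genes were all 10 factors, *Arntl*, *Pou5f1*, *Sox2*, up to 5 passing genes per list and the 5 genes most like *Nr0b1*, and other genes named were chosen after their values were seen. Alternatives were 10 settings, the omission of each of 4 libraries and 2 settings added after seeing the data.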

Additional observations from a re-analysis of the deposited data

How the results depend on the processing

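The rise of *Nr0b1* passed in 15 of 15 alternatives (limma adjusted p from 0.00210 to 0.0432), and the fall of *Klf4* in 14 of 15. Without a variance trend the adjusted p of *Klf4* (-0.46) was 0.0582 and that of *Tfcp2l1* (0.39) 0.0743, leaving 1 factor higher and 0 lower in limma, with 457 features lower in place of 728. *Tfcp2l1* did not pass either without KO replicate 1 (0.38), KO replicate 2 (0.40) or WT replicate 2 (0.36). When each library was left out in turn, 1 to 2 factors were higher, 1 was lower, the median of the factors ran from -0.10 to -0.071, *Tfcp2l1* from 0.36 to 0.42 and *Klf2* from -0.027 to 0.0067, and *Klf2* was at 0.00086 without KO replicate 1 and 0.0067 without WT replicate 1. *Klf2* also changed sign with quantile normalization (0.085) and with rescaling to features with a symbol (0.063), by which the median of the factors became 0.011 and -0.024, and rescaling turned the log2 ratio of the summed KLF genes from -0.039 to 0.034. Rescaling moved the median of all features by 0.07 and the calls to 1077 higher and 517 lower (67.6% higher, against 55.0% of 890 and 728). Without a filter on low values, 571 features were higher and 380 lower, and 18 genes of the further lists passed in place of 29. With a mean of at least 0.5 FPKM required in each genotype, 27 passed (chosen after seeing the data). Of the 29 genes, 18 passed in every alternative in which they were tested. *Fgfr2*, one of these, was tested in only 12 of 15. Its mean fell under the filter without either KO library and with a minimum of 1 FPKM. *Tcf7l1* was lost without a filter and without a variance trend. The small differences of *Pou5f1* (0.074 with quantile normalization, 0.025 with rescaling, -0.14 to 0.049 with a library left out), *Arntl* (0.017) and *Stat3* (0.028, both with rescaling) changed sign.

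Replicate numbers are shared between genotypes, but nothing says that they mark a common culture or day, and 2 pairs are too few to settle it. Across tested features, which are not independent, the replicate differences of WT and KO had r = 0.07 and Spearman rho 0.39, with the same sign for 69.7% of features and for 9 of the 10 factors. With the replicate block, 1807 features were higher and 2245 lower, 51 genes of the further lists passed, and 5 factors were lower in place of 1: *Nanog* (-0.18, limma adjusted p = 0.0231), *Zfp42* (-0.21, 0.0277), *Prdm14* (-0.29, 0.0281) and *Tbx3* (-0.22, 0.0251) beside *Klf4*. *Esrrb* was higher (0.25, 0.0141). *Sox2*, which is not one of the 10 factors, passed as lower with the block (-0.26, limma adjusted p = 0.0140). It also passed with features without a symbol left out (0.0445), a setting added after seeing the data. The cause of these changes was not tested. Depth, unknown here, limits what can be said of low genes such as *Fgfr2*.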
